A study of Homo sapiens with 52 samples.

Results

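The laminin chains and integrin subunits of WI-38 cells, a line of normal human lung fibroblasts, were followed through damage to the plasma membrane, an influx of calcium, DNA damage and replicative senescence. The genes were taken by symbol alone, as every laminin alpha, beta or gamma chain and every integrin alpha or beta subunit listed, which gave 38 of the 59408 genes (12 laminin chains, 18 integrin alpha subunits and 8 integrin beta subunits). Of these, 29 had a mean normalized read count of at least 10 over the 26 groups and were tested, and 9 did not reach it.

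Laminins are the cross-shaped proteins of basement membranes, each a trimer of an alpha, a beta and a gamma chain. Integrins are receptors made of an alpha and a beta subunit that bind laminin, collagen, fibronectin and other matrix proteins outside the cell and couple them to actin inside it. ITGB1 is the partner shared by most alpha subunits of fibroblasts, while ITGAV also pairs with ITGB3, ITGB5, ITGB6 and ITGB8, and the alpha subunit largely sets what is bound.

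WI-38 cells were treated for 24 h with 0.009% sodium dodecyl sulfate (SDS, a detergent, PMD-Sen), 75 mM KCl (a depolarizing salt that lets calcium in, Ca2+-Sen) or 250 nM doxorubicin (DXR, a DNA-damaging drug, DDR-Sen), washed, and collected from day 0, the end of treatment, to day 16 (also on days 1 to 4, 6 and 8). Replicatively senescent cells (RS) had reached a population doubling level of about 52, and the untreated cells were young cells of population doubling level 32 to 46. Each of the 26 groups had 2 libraries from 1 line of wild-type genotype, and the study's methods call the samples independent. Whether a pair came from separate cultures is not given in the sources used here, so every p-value measures only the spread between libraries. That spread was pooled over all 26 groups in 1 model, so a pair that lies wide apart is not judged by its own spread alone. The untreated pair serves all 25 comparisons with untreated cells, which therefore share its error.

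The deposited tables held no values of single libraries, and the whole counts of each library were rebuilt from the mean normalized count that a table gives over both groups of its comparison. The library totals were 15.3 and 19.0 M counts in untreated cells, 47.1 and 55.5 M in RS, and between 19.3 and 52.9 M in the treated groups, so the untreated pair had the fewest counts. Within each pair, library 1 is the larger one. In 46 of the 950 pairs of a gene and a treated or RS group only the group mean could be recovered, and such a group entered the test as 1 value. Fibroblast markers were high in every library (COL1A1 at least 86013 normalized counts), whereas the 4 epithelial markers together did not exceed 29.7 (KRT5 and KRT14 at most 2.19 and 2.10). The 3 endothelial markers summed to 44.1 and 54.0 in untreated cells and to 30.6 to 260 after KCl, with VWF between 24.8 and 134 in every library, PECAM1 up to 162 and the defining CDH5 at most 3.45. The summed count of 4 cell division markers was 14541 and 16373 in untreated cells, 423 to 1652 after DXR, 2009 and 2480 on day 8 after KCl, and 6917 and 7185 on day 16 after KCl. The libraries labelled KCl day 16 thus stood nearer to untreated cells than those labelled KCl day 8, and whether the labels of these groups are in the right order was not tested, which bears on every KCl value of days 8 and 16. In bulk RNA, fewer cells of a type and less RNA per cell cannot be told apart.

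In untreated cells the most abundant of these genes per kilobase of exon was ITGB1, with 18076 and 18208 normalized counts per kb. LAMC1, the common gamma chain, followed with 4180 and 3910, and ITGA5, the fibronectin receptor subunit, with 2799 and 2902. LAMB1 (2124 and 2161) and LAMB2 (2355 and 1929) overlapped, as did ITGB5 (1667 and 2054) with LAMB2, and no order is read between these neighbours. Further down the order stood the collagen receptor subunit ITGA2 (1358 and 1546), the laminin receptor subunits ITGA3 (1317 and 1118) and ITGA6 (998 and 996), ITGAV (1125 and 1179), and LAMA4 (821 and 808), the most abundant alpha chain. ITGB8 stood at 17.7 and 18.3 per kb and LAMB4 at 2.79 and 2.28. ITGB6, ITGAM, ITGAX, ITGAD and ITGB7 had no count in either untreated library.

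Per kb, LAMA4 made up 63.5% and 70.2% of the summed laminin alpha chains in untreated cells, and LAMA5 20.4% and 14.3%. LAMB1 and LAMB2 shared the beta chains, with LAMB1 at 46.5% and 51.8%. Among the alpha subunits that pair with ITGB1, ITGA5 took 31.9% and 33.0%, and among the beta partners of ITGAV other than ITGB1, ITGB5 took 92.1% and 92.6%.

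A gene was called changed at an adjusted p-value under 0.05, by limma over all 15605 genes tested. Against untreated cells, 273 of 725 pairs of a gene and a comparison were called (37.7%, 118 higher and 155 lower), beside 25.8% over all genes. At a mean of at least 100 normalized counts, which 26 of the 29 and 70.8% of all genes reached, the shares were 41.1% and 33.6%. Of the 29 genes, 28 were called at least once, ITGB4 being the exception, and 20 were called higher in some comparisons and lower in others. Without untreated library 1 that number was 14 and without library 2 it was 16. How many of all 15605 genes were called at least once or in both directions was not counted. These counts are therefore not read as particular to laminins and integrins. Leaving out each of the 4 libraries of a comparison in turn, 131 of the 273 calls held every time and 142 were lost at least once. The rate over all genes was not counted. In 8 of the 131, 1 group was known by its mean only, so that leaving out a library of that group changed nothing. A call is described below as firm when it is among the other 123 (by the same rule between inducers).

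**Figure D1:**
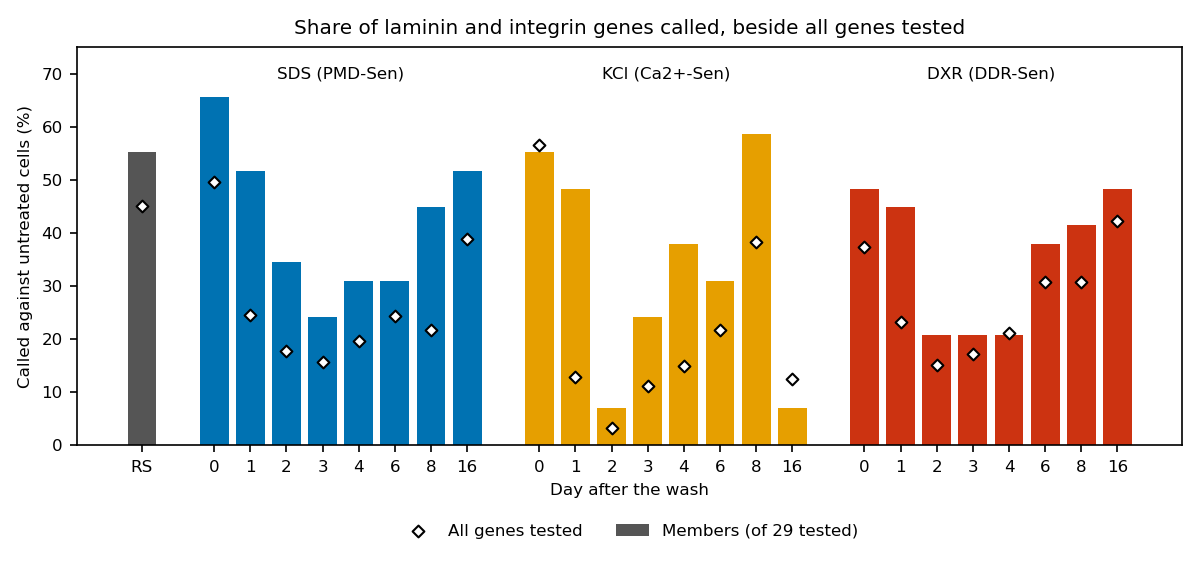
Bars give the percentage of the 29 tested laminin and integrin genes called against untreated cells, by day after the wash for SDS, KCl and DXR and for RS, and diamonds give the percentage of all 15605 genes called in the same comparison. The bars stand highest on SDS day 0 (19 of 29) and lowest on KCl days 2 and 16 (2 of 29 each), and those of KCl days 0 and 16 and DXR day 4 lie below their diamonds.

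After SDS, 19 of the 29 genes were called on day 0 (4 higher, 15 lower, beside 49.6% of all genes), 15 on day 1 (6 higher, 9 lower, 24.5%), 10 on day 2 (1 higher, 9 lower, 17.8%) and 7 on day 3 (1 higher, 6 lower, 15.7%). On day 4 the count was 9 (2 higher, 7 lower, 19.6%), on day 6 it was 9 (5 higher, 4 lower, 24.4%), on day 8 it was 13 (6 higher, 7 lower, 21.7%) and on day 16 it was 15 (9 higher, 6 lower, 38.8%). The median log2 fold change of the 29 genes was -0.24 on day 0 and -0.28 on day 2, against -0.03 and 0.03 over all genes, and 0.03 on day 16. Leaving out untreated library 1 lowered the day 1 count to 8 and the day 3 count to 4, and leaving out untreated library 2 lowered day 6 to 5 and day 8 to 7. Without library 1 of their own pair, day 4 fell to 5 and day 8 to 8, and with the 2 groups of the comparison fitted alone, day 16 fell to 8.

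After KCl, 16 genes were called on day 0 (4 higher, 12 lower, 56.5% of all genes), 14 on day 1 (3 higher, 11 lower, 12.9%), 2 on day 2 (both lower, 3.29%) and 7 on day 3 (1 higher, 6 lower, 11.2%). The count was 11 on day 4 (2 higher, 9 lower, 14.9%), 9 on day 6 (5 higher, 4 lower, 21.6%), 17 on day 8 (10 higher, 7 lower, 38.2%) and 2 on day 16 (both lower, 12.4%). The day 1 count was 2, 9, 7 and 3 when untreated library 1, untreated library 2, KCl library 1 and KCl library 2 were left out, and 8 when libraries were scaled by their totals. Day 3 fell to 3 without KCl library 2, day 4 to 6 without untreated library 1, and day 6 to 3 without untreated library 2 and to 5 without KCl library 2. On days 2 and 16, limma called 0 or 1 gene without any 1 of the 4 libraries, where 3 to 10 passed an unadjusted p of 0.05 in the fits with 0 called, and fitted alone these comparisons gave 6 and 11. No share of all genes is given for any fit of 2 groups alone, so such counts are not read as particular to these genes. The libraries labelled KCl day 16 thus gave few calls in the model of all groups but not when fitted alone. The number of calls there depends on the model, and the SD of the log2 ratio of the 2 libraries was 0.11. Their division markers were nearer to untreated cells than in those labelled day 8. The part of cell division in these values was not tested.

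After DXR, 14 genes were called on day 0 (10 higher, 4 lower, 37.4%), 13 on day 1 (10 higher, 3 lower, 23.2%), 6 on day 2 (4 higher, 2 lower, 15.0%), 6 on day 3 (2 higher, 4 lower, 17.1%) and 6 on day 4 (1 higher, 5 lower, 21.1%). From day 6 the counts were 11 (6 higher, 5 lower, 30.7%), 12 on day 8 (6 higher, 6 lower, 30.8%) and 14 on day 16 (8 higher, 6 lower, 42.2%). The day 1 count was 7 and 6 without untreated library 1 and 2, day 2 was 3 without DXR library 1, day 6 was 7 without untreated library 2, and day 4 was 11 when fitted alone. In RS, 16 genes were called (12 higher, 4 lower, 45.0%), with a median log2 fold change of 0.32 against -0.00 over all genes. The RS libraries were the widest pair (the SD of the log2 ratio of its libraries was 0.35, beside 0.19 in untreated cells), and fitted alone with the untreated pair the RS count was 7.

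**Figure D2:**
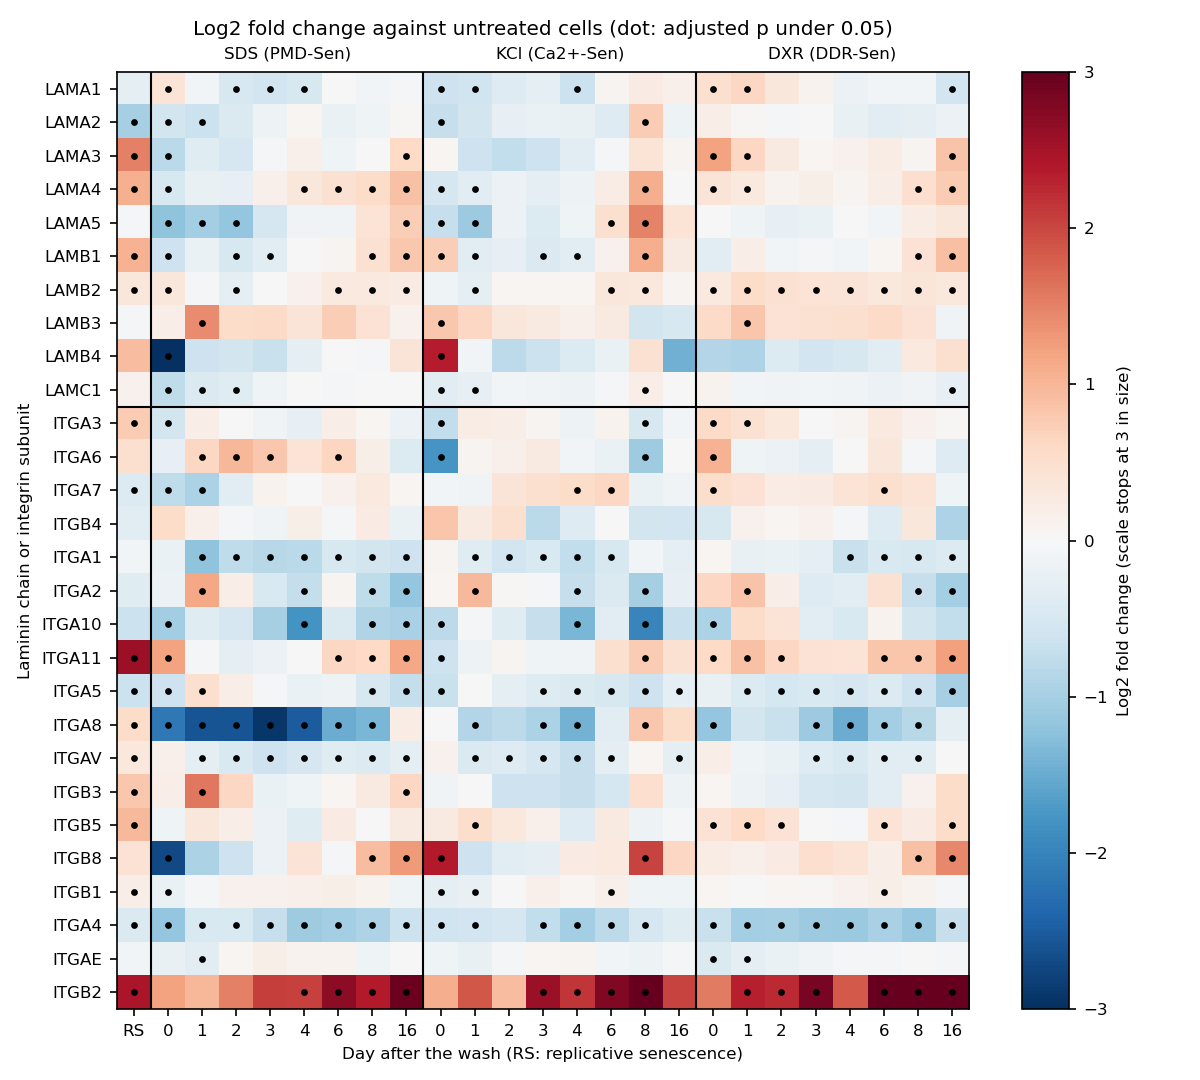
Log2 fold change against untreated cells of the tested genes reported here (rows, laminin chains above the line) in RS and on each day after SDS, KCl and DXR (columns), with a dot where the adjusted p-value was under 0.05. ITGA4 is below 0 in every column, ITGA8 is deepest on days 0 to 4 after SDS (down to -2.91), and ITGB8 and LAMB4 are low on day 0 after SDS and high on day 0 after KCl. Colours stop at 3 in size, and the ITGB2 row rests on 3 counts in untreated cells.

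Among the laminin alpha chains, LAMA4, a chain of mesenchymal and vascular laminins, had 9500 and 9347 normalized counts in untreated cells. It was at 17973 and 21702 in RS, 15844 and 18934 on day 16 after SDS, 16743 and 15260 on day 16 after DXR, and 19740 and 20551 on day 8 after KCl. All these libraries lay above both untreated ones. The log2 fold changes were 1.07 (SE 0.11, adjusted p = 9.70e-10) in RS, 0.88 (SE 0.11, adjusted p = 8.07e-08) after SDS, 0.76 (SE 0.11, adjusted p = 7.04e-07) after DXR and 1.10 (SE 0.11, adjusted p = 1.87e-09) on KCl day 8, all firm. On day 0 it stood at 6294 and 7134 after SDS and at 6752 and 6472 after KCl, below untreated cells (log2 fold changes -0.49 and -0.51, both firm), and at 12126 and 12515 after DXR, above them (0.39, firm). On day 16 after KCl its 9231 and 9301 counts lay just under the untreated pair and it was not called. In RS, LAMA4 made up 80.1% and 84.9% of the alpha chains per kb.

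LAMA5, the alpha chain of laminins found in most adult basement membranes, had 3771 and 2347 counts in untreated cells, a wide pair. After SDS it fell to 1359 and 1242 on day 0, 1471 and 1451 on day 1, and 1329 and 1371 on day 2, with firm log2 fold changes of -1.20, -1.03 and -1.15. After KCl it stood at 1744 and 2023 on day 0 (-0.68, not called without untreated library 1, adjusted p = 0.191) and fell to 1378 and 1456 on day 1 (-1.08, firm). On day 8 after KCl it reached 8250 and 8403, its highest level in any group, a firm rise of 1.48 (SE 0.17, adjusted p = 8.20e-08). None of the 8 DXR comparisons nor RS was called for LAMA5.

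LAMA3, a chain of epithelial laminins, was scarce in untreated cells, with 173 and 176 counts. It stood at 530 and 473 in RS and at 388 and 420 on day 0 after DXR, with firm log2 fold changes of 1.52 (SE 0.17, adjusted p = 1.80e-08) and 1.20 (SE 0.18, adjusted p = 1.93e-06). On day 0 after SDS it was at 115 and 84.5 (-0.81, adjusted p = 0.00489, lost without SDS library 2 at 0.0790). On day 16 it rose after DXR to 333 and 297 (0.85, firm), and stood after SDS at 271 and 254 (0.59, adjusted p = 0.0142, lost without either untreated library or SDS library 1).

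LAMA2, the chain of muscle and nerve laminins, had 981 and 902 counts in untreated cells and 593 and 370 in RS, a firm fall of -0.99 (SE 0.19, adjusted p = 9.00e-05). It was lower on day 0 after KCl (551 and 628, firm) and higher on day 8 after KCl (1535 and 1635, firm). LAMA1, a chain best known from embryonic basement membranes, had 1625 and 1257 counts in untreated cells and moved less. On day 0 it stood at 2107 and 1701 after SDS (0.40), 868 and 1023 after KCl (-0.62), and 2022 and 2019 after DXR (0.49), and each of these calls was lost without 1 or 2 of the 4 libraries (adjusted p up to 0.303, 0.0558 and 0.159). Of the exon bases of LAMA1, 10.3% are shared with AP002409.1 on the other strand, and the strand setting of the counting is not given in the sources used here.

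LAMB1, the beta chain that joins LAMC1 in many laminins, had 17291 and 17591 counts in untreated cells. On day 0 it fell after SDS to 11099 and 11830 and rose after KCl to 30140 and 27870, and it was 13876 as the mean of the pair after DXR. The SDS and KCl libraries thus lay on opposite sides of the untreated pair, with firm log2 fold changes of -0.61 (SE 0.11, adjusted p = 4.38e-05) and 0.73 (SE 0.11, adjusted p = 2.21e-06). The KCl level was back to 13982 and 13308 on day 1. By the later days LAMB1 was higher in RS (30353 and 42378, log2 fold change 1.04), on day 8 after KCl (35998 and 38884, 1.10) and on day 16 after DXR (31989 and 32936, 0.90), all firm, and on day 16 after SDS (mean 30963, 0.82), where only the untreated libraries could be left out in turn. On day 16 after KCl it was at 20711 and 21108 and was not called. Per kb, its share of the beta chains was 33.6% on day 0 after SDS and 62.8% on day 0 after KCl.

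LAMB2, the other main beta chain, kept between 12061 and 21319 counts as a group mean. It had 16168 and 13241 counts in untreated cells, was called higher on all 8 days after DXR, and was highest on DXR day 1 (22114 and 20525, log2 fold change 0.54, SE 0.08, adjusted p = 3.37e-06, firm). The DXR calls of days 2, 3 and 8 were firm too, while those of days 0, 4, 6 and 16 were lost without untreated library 2 (adjusted p up to 0.280). LAMB2 was also called higher on SDS days 0, 6, 8 and 16 and KCl days 6 and 8 (log2 fold changes of 0.24 to 0.34), and all 6 calls were lost without untreated library 2 (adjusted p up to 0.408). It was called higher in RS (17565 and 19823, 0.35) and lower on SDS day 2 (12018 and 12259, -0.27) and KCl day 1 (12109 and 12014, -0.28), but none of these 3 calls was firm (adjusted p up to 0.0532, 0.428 and 0.424). LAMB3, a beta chain of epithelial laminin that joins LAMA3, went from 387 and 382 counts to 953 and 1127 on day 1 after SDS, a firm rise of 1.41 (SE 0.28, adjusted p = 4.26e-04). On day 0 after KCl LAMB3 stood at 605 and 794 (0.82, adjusted p = 0.0145, and between 0.0675 and 0.0846 without untreated library 1, untreated library 2 or KCl library 2).

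LAMB4, a chain with no established place in a laminin trimer, lies next to LAMB1 on the same strand of chromosome 7 (LAMB4 at chr7:108011662-108130361, LAMB1 at chr7:107923799-108003161, GRCh38.p14). It was scarce, with 19.6 and 16.0 normalized counts in untreated cells, 4.96 and 0 on day 0 after SDS, and 103 and 85.9 on day 0 after KCl. Both KCl libraries lay above every other library and the SDS mean was the lowest of all groups, with log2 fold changes of 2.36 (SE 0.46, adjusted p = 6.49e-05, firm) and -3.23 (SE 0.90, adjusted p = 0.00341, lost without SDS library 2 at 0.108). The fitted fold after SDS depends on the value added to counts, since 1 library held none.

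LAMC1 had 35134 and 32871 counts in untreated cells and a 1.96-fold range of its group means. It fell to 19416 and 20363 on day 0 after SDS, a firm log2 fold change of -0.77 (SE 0.07, adjusted p = 1.12e-09), and was lower at a mean of 25261 on day 1 and at 26551 and 26264 on day 2, the latter a firm fall. After KCl it was 26561 and 27416 on day 0 (-0.33, firm) and on day 8 it was 38831 and 39142 (0.20, lost without 3 of the 4 libraries, adjusted p up to 0.190). LAMC3 was not tested at a mean of 8.11, and it had 2 counts in untreated cells, 236 on day 0 after DXR (78 and 158) and 67 in RS, which gave ratios of 40.6 (95% interval for counting error only, 11.1 to 337) and 11.2 (2.99 to 94.7).

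**Figure D3:**
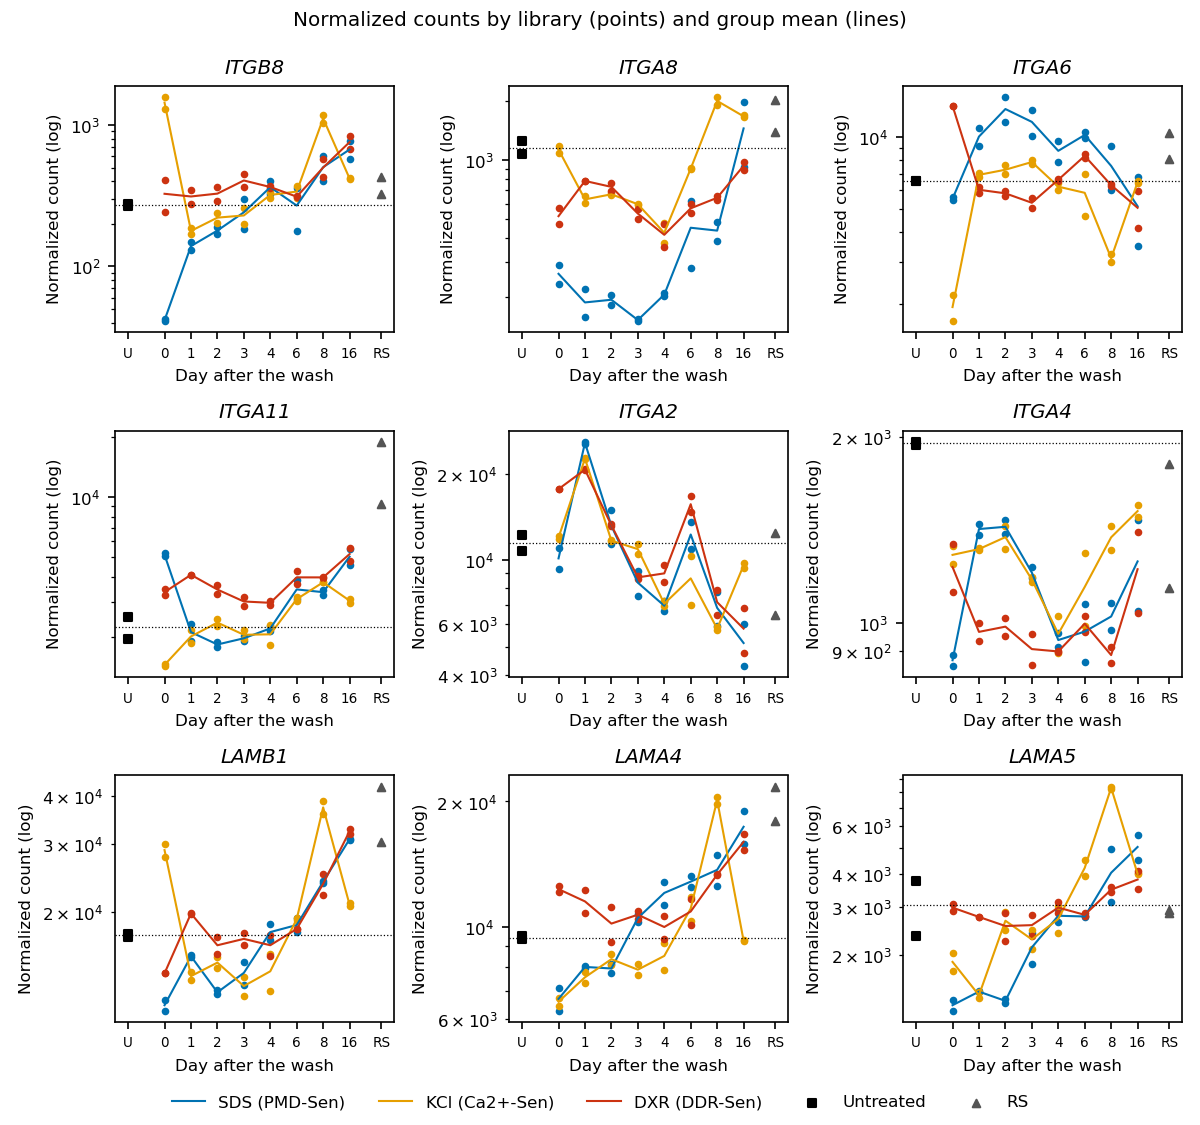
Normalized counts (log axis) of 6 integrin subunits and 3 laminin chains in both libraries of each group (points) with group means (lines) by day after the wash, untreated cells at the left with their mean as a dotted line and RS at the right. Where only the mean of a pair was recovered both points are drawn at or near it. ITGB8 spans 40.9 to 1574 counts, ITGA2 peaks on day 1 after all 3 inducers, and LAMB1 and LAMA4 are highest late after SDS and DXR and on day 8 after KCl.

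The laminin-binding subunits did not move as a block. ITGA6, which pairs with ITGB1 or ITGB4, had 6519 and 6505 counts in untreated cells. On day 0 it fell to 1704 and 2196 after KCl, stayed at 5598 and 5418 after SDS, and rose to a mean of 13438 after DXR. The KCl value was below and the DXR mean above both untreated libraries, with log2 fold changes of -1.76 (SE 0.22, adjusted p = 4.78e-08, firm) and 1.05 (SE 0.26, adjusted p = 0.00175, held without either untreated library). On day 2 after SDS it reached 14582 and 11452 (0.99, firm), when DXR cells held 5678 and 5925 and were not called. On day 8 after KCl ITGA6 was at 3240 and 2992 (-1.06, firm). Per kb, it went from 11.4% and 11.3% of the ITGB1 partners in untreated cells to 4.54% on day 0 after KCl and 21.4% on day 3 after SDS.

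ITGA3, a receptor for laminins with LAMA3 or LAMA5, had 12906 and 10956 counts in untreated cells, 19855 and 20130 in RS, and on day 0 a mean of 17646 after DXR, 7840 and 8552 after SDS, and 6631 and 7567 after KCl. RS was higher (0.75, SE 0.13, adjusted p = 1.77e-05) and day 0 after SDS and KCl lower (-0.54 and -0.75), all firm, while the DXR call (0.57) was lost without untreated library 2 at 0.0550. ITGA7, best known from muscle, had a wide untreated pair of 1671 and 1001. It was called lower on day 0 after SDS (746 and 799, -0.77) and higher on day 0 after DXR (1964 and 1840, 0.53), and lost these calls without untreated library 1 and untreated library 2, in that order (adjusted p = 0.141 and 0.434). The other ITGA7 calls against untreated cells were not firm either. ITGB4, the epithelial partner of ITGA6, never passed the test against untreated cells and had at most 28.6 normalized counts in any library.

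Among the collagen-binding subunits, the highest group mean was 9.70 times the lowest for ITGA11, 5.71 times for ITGA10, 4.97 times for ITGA2 and 2.42 times for ITGA1. ITGA2 had 10741 and 12226 counts in untreated cells and on day 1 reached a mean of 25632 after SDS, 22688 and 22508 after KCl, and a mean of 20686 after DXR. All of these lay above both untreated libraries, at log2 fold changes of 1.15 (SE 0.26, adjusted p = 0.00179, held without either untreated library), 0.98 (SE 0.22, adjusted p = 0.00270) and 0.85 (SE 0.26, adjusted p = 0.0192), of which the KCl and DXR calls were lost without untreated library 1 (adjusted p = 0.0547 and 0.110). By day 16 it was 6018 and 4293 after SDS, 6831 and 4744 after DXR and 9434 and 9772 after KCl. The SDS and DXR libraries lay below both untreated ones (-1.17 and -1.01, both firm), and KCl was not called. On day 8 after KCl ITGA2 was at 5718 and 5849 (-0.99, firm).

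ITGA11, the collagen receptor subunit of fibroblasts, had 2518 and 1945 counts in untreated cells and 9256 and 18875 in RS. Both RS libraries exceeded every other library of the data, at a firm log2 fold change of 2.57 (SE 0.19, adjusted p = 2.60e-12), and they lay far apart from each other. On day 0 it rose to 5066 and 5228 after SDS (1.21, SE 0.19, adjusted p = 3.04e-06, firm) and stood at 1433 and 1466 after KCl (-0.62, adjusted p = 0.00711, lost without untreated library 1 at 0.158). It was back at 2319 and 1910 on day 1 after SDS. On day 16 it was higher after SDS (4588 and 5494, 1.17) and DXR (4793 and 5593, 1.22), both firm. On day 2 after DXR it stood at 3620 and 3281 (0.63, adjusted p = 0.0201, and 0.241 without untreated library 2). Its share of the ITGB1 partners per kb was 2.64% and 2.03% in untreated cells and 8.49% and 17.2% in RS.

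ITGA1, a receptor for basement membrane collagen, had 4974 and 5457 counts in untreated cells and was lower on days 1 to 16 after SDS, lowest on day 1 (2484 and 2053, -1.20, SE 0.12, adjusted p = 3.24e-08, firm). On day 2 after KCl it stood at 3532 and 3500 (-0.57, adjusted p = 0.00632, lost without 3 of the 4 libraries, up to 0.0973). A share of 2.56% of its exon bases is also exon of PELO on the same strand. ITGA10, a subunit best known from cartilage, fell from 163 and 140 counts to 32.9 and 59.0 on day 4 after SDS (-1.79) and to 48.6 and 29.9 on day 8 after KCl (-1.97), both firm.

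**Figure D4:**
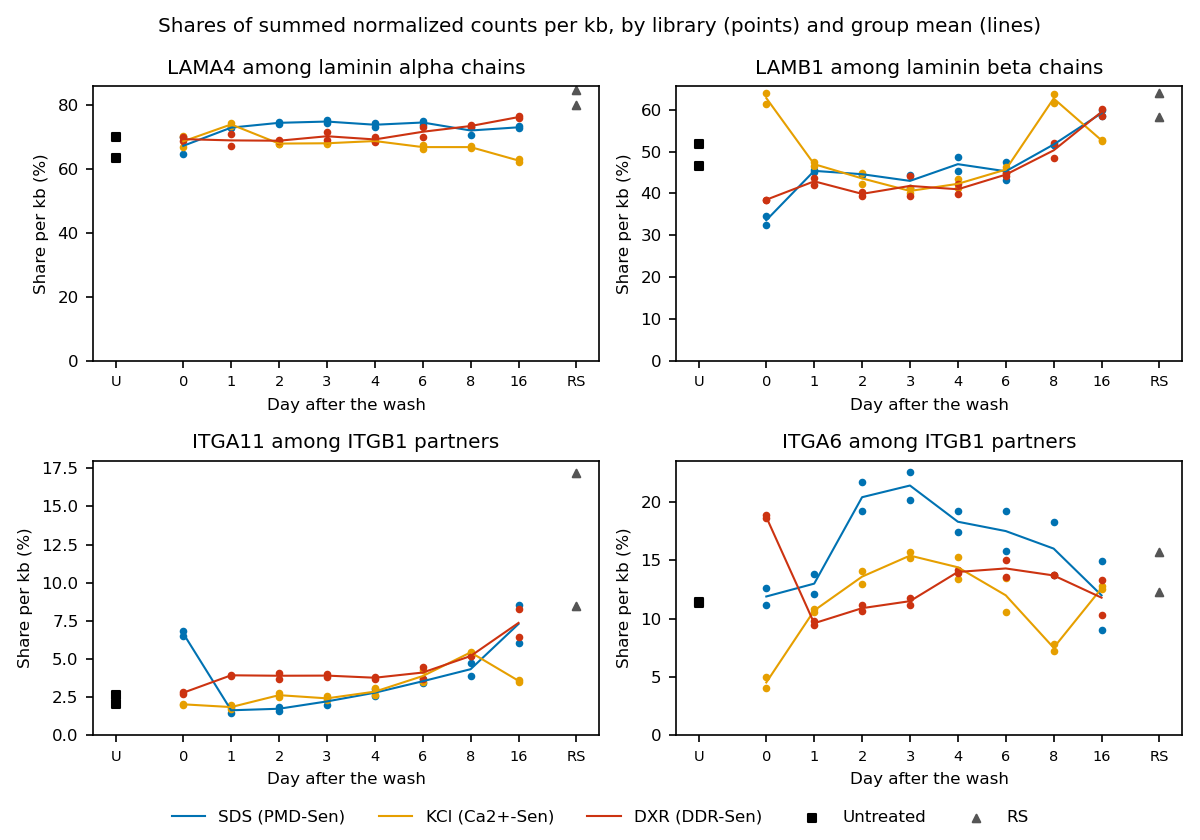
Shares, in percent, of summed normalized counts per kb of exon in each library (points) with group means (lines) by day after the wash, for LAMA4 among laminin alpha chains, LAMB1 among beta chains, and ITGA11 and ITGA6 among alpha subunits that pair with ITGB1. Where only the mean of a pair was recovered for a gene, both points use it. LAMA4 keeps at least 62.7% in every group mean, LAMB1 stands at 33.6% on SDS day 0 and 62.8% on KCl day 0, and ITGA11 is highest in RS (8.49% and 17.2%).

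Among the subunits that bind the RGD motif of fibronectin, vitronectin and latent TGF-beta, the highest group mean was 34.7 times the lowest for ITGB8 and 13.2 times for ITGA8, but 2.03 to 5.10 times for ITGAV, ITGB5, ITGA5 and ITGB3. ITGB8, which with ITGAV activates latent TGF-beta, had 268 and 278 counts in untreated cells, 42.1 and 40.9 on day 0 after SDS, 1309 and 1574 on day 0 after KCl, and 409 and 243 on day 0 after DXR. The SDS libraries were the lowest and the KCl libraries the highest of all groups, and the DXR libraries lay on either side of the untreated pair. The log2 fold changes were -2.70 (SE 0.55, adjusted p = 1.25e-04) after SDS and 2.38 (SE 0.28, adjusted p = 1.49e-08) after KCl, both firm. On day 1 both had moved toward untreated cells, to 148 and 130 after SDS and 169 and 186 after KCl, and neither was called. ITGB8 was called higher late, at 1039 and 1187 on day 8 after KCl (2.02, adjusted p = 1.22e-06), 573 and 770 on day 16 after SDS (1.28, adjusted p = 8.04e-04) and 674 and 840 on day 16 after DXR (1.45, adjusted p = 1.41e-04), all firm. Per kb it stayed a minor share of the ITGAV partners other than ITGB1, from 0.150% on day 0 after SDS to 3.89% on day 0 after KCl.

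ITGA8, a receptor of nephronectin and fibronectin, had 1074 and 1247 counts in untreated cells. After SDS it was 292 and 232 on day 0, 182 and 203 on day 2 and 154 and 150 on day 3, and it returned to 923 and 1985 on day 16. Every SDS library of days 0 to 8 was below both untreated libraries, with firm calls on each of these 7 days and the lowest log2 fold change on day 3 (-2.91, SE 0.37, adjusted p = 5.86e-06). After KCl it was near untreated cells on day 0 (1179 and 1088), lowest on day 4 (475 and 375, -1.42, firm) and highest on day 8 (1921 and 2101, 0.80, adjusted p = 0.00634, lost without untreated library 1 at 0.0855). After DXR it was 566 and 469 on day 0 (-1.16, SE 0.25, adjusted p = 3.74e-04, firm) and 982 and 891 on day 16, where it was not called.

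ITGA5, the main fibronectin receptor subunit, had 21205 and 21991 counts in untreated cells and was called lower in 17 of the 25 comparisons, of which the DXR day 16 value was the lowest (mean 10930, -0.99, SE 0.10, adjusted p = 9.53e-09). On day 1 after SDS it was higher instead, at a mean of 30478 (0.49, adjusted p = 6.81e-04). Those of SDS days 1 and 8 and DXR days 1 and 16, with the mean only, held without either untreated library, and the rest were firm except that of KCl day 16 (18240 and 17886, -0.26, adjusted p = 0.0364, and 0.110 to 0.190 without any 1 of the 4 libraries). On day 2 after DXR it was 14948 and 15254 (-0.52, adjusted p = 3.51e-05). ITGAV had 9238 and 9681 counts in untreated cells and was lower on days 3 and 4 after all 3 inducers, lowest at 6173 and 5565 on day 4 after KCl (-0.69, SE 0.09, adjusted p = 3.76e-06, firm). Its only call above untreated cells was in RS (10672 and 13129, 0.32, lost without RS library 2 at 0.152), and its calls on KCl days 2 (6848 and 7671, -0.38) and 16 (7864 and 7870, -0.27) were lost without 3 and 4 of the 4 libraries (adjusted p up to 0.255 and 0.235).

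ITGB3, the partner of ITGAV in the vitronectin receptor, had 553 and 638 counts in untreated cells and 1593 and 2045 on day 1 after SDS (1.59, SE 0.24, adjusted p = 1.16e-05, firm), a level that no other group reached. Of its exon bases 51.6% are shared with AC068234.1 on the same strand, so its counts are uncertain. ITGB5, by RNA per kb the most abundant ITGAV partner other than ITGB1, had 10750 and 13239 counts in untreated cells and 26782 and 20403 in RS (0.97, SE 0.14, adjusted p = 1.93e-06, firm). Its calls above untreated cells after KCl and DXR were each lost without untreated library 1. ITGB1 itself varied least, from a group mean of 90522 on day 0 after KCl (87658 and 93386, -0.27, firm) to 125414 in RS (128800 and 122028, 0.20, firm), beside 108657 and 109449 in untreated cells.

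ITGA4, a subunit of the receptor for VCAM1 and fibronectin, had 1961 and 1941 counts in untreated cells, and no other library held as much. It was called lower in 23 of the 25 comparisons, all but KCl days 2 and 16, and in 18 and 19 without untreated library 1 and 2. Examples are 888 and 852 on day 0 after SDS (-1.16, SE 0.17, adjusted p = 1.07e-06), 953 and 1020 on day 2 after DXR (-0.99, SE 0.16, adjusted p = 4.33e-05) and 897 and 900 on day 4 after DXR (-1.12, SE 0.16, adjusted p = 3.22e-06), all firm. In RS, at 1809 and 1137, the call (-0.44) was lost without 3 of the 4 libraries (adjusted p up to 0.583). ITGAE, known from T cells of epithelia, kept 553 to 857 counts in every library. It was called lower on SDS day 1 and on DXR days 0 and 1, and of these the DXR day 0 fall (553 and 560, beside 751 and 752 in untreated cells, -0.43, SE 0.10, adjusted p = 0.00128) was firm.

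ITGB2, the beta subunit of leukocyte integrins, had 3 counts in the untreated libraries together (0 and 3). It had 47 counts on day 8 after DXR, 41 on day 16 after DXR, 42 in RS, 42 on day 8 after KCl and 35 on day 16 after SDS. Scaled for depth, these were 9.52 (95% interval for counting error only, 3.07 to 47.8), 7.40 (2.36 to 37.4), 4.70 (1.50 to 23.7), 6.99 (2.23 to 35.3) and 6.26 (1.97 to 31.8) times the untreated level. The 15 calls of ITGB2 were all higher, and 14 of them were lost without untreated library 1, which held no ITGB2 count. Its mean over the 26 groups was 11.2, just past the minimum of 10, and untreated cells were its lowest group at 3.00. ITGB2 thus entered the test through the groups where it was high, so the direction of its calls is not evidence of a rise. The groups with printed ratios were picked without a fixed rule. The summed count of 5 white blood cell markers was 31.0 and 34.0 in untreated cells. Over all libraries and days it ranged from 117 to 418 in RS, 15.0 to 378 after SDS, 24.6 to 312 after KCl and 50.9 to 292 after DXR. It was not set against ITGB2 group by group. CD14 alone reached 414, whereas PTPRC was at most 38.3 and at 0 in 15 libraries and CD3E did not exceed 6.94. Their part in the ITGB2 counts was not tested. The other 8 genes below the test minimum, beside LAMC3, reached at most 29 counts (ITGA2B), 25 (ITGA9), 24 (ITGAM), 15 (ITGB6), 11 (ITGB7), 9 (ITGAL), 8 (ITGAX) and 3 (ITGAD) in any library.

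On day 0 the inducers were also compared directly, which does not involve the untreated libraries. SDS against DXR gave 17 genes called (1 higher after SDS, ITGA11, and 16 lower, 56.6% of all genes), SDS against KCl gave 16 (4 higher, 12 lower, 63.7%), and KCl against DXR gave 20 (6 higher, 14 lower, 64.8%). The medians of the 29 genes were -0.40, -0.25 and -0.42 on the log2 scale, against 0.00, 0.01 and -0.01 over all genes. The genes called in opposite directions against untreated cells after SDS and KCl were LAMB1, LAMB4 and ITGB8, lower after SDS and higher after KCl, and LAMA1 and ITGA11, higher after SDS and lower after KCl. Their SDS and KCl libraries did not overlap for any of the 5, but neither did those of any of the 16 genes called between SDS and KCl. Non-overlap is thus no further evidence for the 5. Neither its share over all genes nor that of calls in opposite directions was counted.

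The RefSeq promoters (GRCh38.p14) of these genes are shown because they were called in opposite directions against untreated cells after SDS and KCl. Of those calls, both of LAMA1, that of LAMB4 after SDS and that of ITGA11 after KCl were not firm. Other genes differed between SDS and KCl on day 0 too, among them ITGA8 (-2.12) and ITGA6 (1.52), and their promoters are not shown. Each run is the 250 bases before the start used in that table, read 5′ to 3′ on the gene's strand. For ITGB8 that start lies inside the span given for the gene (chr7:20329766-20415754), so the window is downstream of the gene's first base. Capitals mark CCAAT, the NF-Y box, on either strand. No entry was matched for LAMA1.
ITGB8, chr7:20330650-20330899, plus strand: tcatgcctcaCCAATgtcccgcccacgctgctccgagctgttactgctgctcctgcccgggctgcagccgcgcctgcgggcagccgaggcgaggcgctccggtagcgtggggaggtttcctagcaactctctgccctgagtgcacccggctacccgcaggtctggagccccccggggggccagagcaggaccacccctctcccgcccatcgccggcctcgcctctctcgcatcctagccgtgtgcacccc
LAMB1, chr7:108003162-108003411, minus strand: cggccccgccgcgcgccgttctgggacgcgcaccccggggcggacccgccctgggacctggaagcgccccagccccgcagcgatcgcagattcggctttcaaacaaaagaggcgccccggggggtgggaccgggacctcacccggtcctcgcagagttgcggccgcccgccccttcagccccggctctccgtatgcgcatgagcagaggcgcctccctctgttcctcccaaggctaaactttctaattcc
LAMB4, chr7:108130362-108130611, minus strand: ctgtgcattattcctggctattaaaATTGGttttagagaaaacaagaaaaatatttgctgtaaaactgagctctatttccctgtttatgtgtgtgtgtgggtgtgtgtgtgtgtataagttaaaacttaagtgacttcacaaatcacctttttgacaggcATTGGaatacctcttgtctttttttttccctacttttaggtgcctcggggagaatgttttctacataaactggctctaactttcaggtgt
ITGA11, chr15:68432164-68432413, minus strand: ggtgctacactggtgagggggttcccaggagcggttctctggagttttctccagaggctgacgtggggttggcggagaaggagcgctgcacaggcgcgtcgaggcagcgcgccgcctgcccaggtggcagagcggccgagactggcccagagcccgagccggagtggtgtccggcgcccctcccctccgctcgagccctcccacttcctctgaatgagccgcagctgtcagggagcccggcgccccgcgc

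The ITGB8, LAMB1 and ITGA11 windows were rich in G and C (71.2%, 70.4% and 71.2%), and the LAMB4 window was not (36.4%, beside a median of 58.0% over all promoters). CCAAT stood at -240 from the start in ITGB8 and at -225 and -90 in LAMB4, and 32.0% of the 35116 promoters of this length hold it. The cAMP response element TGACGTCA (in 1.65% of promoters), the AP-1 site TGANTCA (6.57%), the TATA box TATAAA (10.7%), the E-box CACGTG (6.34%) and the heat shock pair GAANNTTC (5.78%) were searched on both strands and were in none of the 4 windows.

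**Figure D5:**
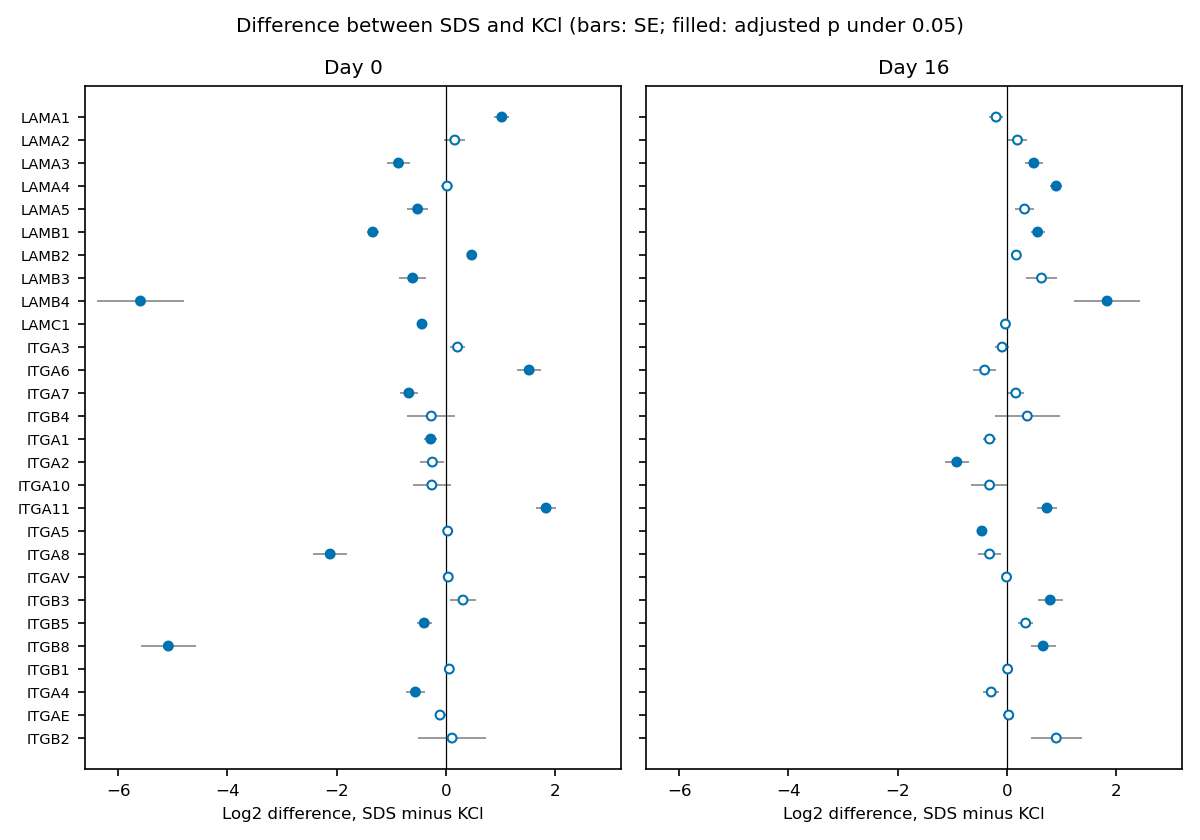
Log2 difference between SDS and KCl of the tested genes reported here on day 0 and day 16, with bars for the SE and filled points where the adjusted p-value was under 0.05. On day 0, LAMB4 (-5.59) and ITGB8 (-5.08) lie farthest on the KCl side and ITGA11 (1.83) and ITGA6 (1.52) farthest on the SDS side, and on day 16 the called points other than LAMB4 stay within 1 of 0.

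On day 16, SDS against DXR gave 1 gene called (LAMA1, higher after SDS, 4.65% of all genes), at 1286 and 1528 counts against 980 and 964 (0.53, SE 0.14, adjusted p = 0.0278). That call was lost without 3 of the 4 libraries, and without SDS library 1 there were 4 calls. The intervals were not tight for all genes, since the SE of the difference reached 0.61 for ITGB4, so a missing call does not show that the inducers acted alike. SDS against KCl gave 9 (7 higher, 2 lower, 22.8%) and KCl against DXR gave 15 (5 higher, 10 lower, 27.2%), and without KCl library 2 these were 5 and 9. LAMA4 was higher after SDS than after KCl by 0.90 (SE 0.11, adjusted p = 9.66e-07) and lower after KCl than after DXR (-0.79, SE 0.11, adjusted p = 1.42e-06), and LAMB1 followed (0.56 and -0.63). These calls were firm, except that for LAMB1 in SDS only the KCl libraries could be left out. ITGA5 was lower after SDS than after KCl (-0.46, adjusted p = 1.83e-04) and higher after KCl than after DXR (0.73, adjusted p = 4.35e-06), the former firm and the latter with the DXR mean only. LAMC1, ITGB1 and ITGAE differed by at most 0.03 between SDS and KCl, with SEs between 0.07 and 0.10.

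The genes that work with laminins and integrins were counted from lists written from general knowledge. Their calls were not checked by leaving out libraries, so none is described as firm. On day 0 after SDS, 24 of 37 tested integrin adaptors were lower and 3 higher, 4 of 5 other laminin receptors were lower, and of 11 tested basement membrane partners 5 were lower and 1 higher, beside 49.6% of all genes called (3989 lower and 3751 higher of 15605). TNS3, a tensin of adhesions, fell from 12757 and 12092 counts to 1944 and 1967 (-2.67, adjusted p = 4.63e-19). The largest rise among the called partner genes there was that of the integrin ligand SPP1. It went from 1.63 and 22.0 counts to 156 and 115 (4.27, SE 0.89, adjusted p = 1.69e-04). After KCl on day 0, 16 of the adaptors were lower and 7 higher (56.5% of all genes called), HSPG2 (perlecan) was at 5759 and 6829 against 24849 and 18251 (-1.77, adjusted p = 3.75e-11), and the matrix protein TNC rose to 77978 and 72225 from 28010 and 19990 (1.66, adjusted p = 1.83e-09). After DXR on day 0, 13 adaptors were lower and 6 higher (37.4% of all genes called), while 4 basement membrane partners were higher and none was lower. On day 2 after SDS, 9 of the 11 basement membrane partners were lower (17.8% of all genes called), among them the laminin-binding NTN4 (667 and 935 against 2836 and 2101, -1.65, adjusted p = 2.47e-05). In RS, 12 adaptors were lower and 7 higher, beside 45.0% of all genes called.

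Among the type IV collagens, which form the other network of basement membranes, COL4A1 and COL4A2 did not follow LAMB1 and LAMA4 on day 16 after SDS. COL4A1 stood at 11747 and 12442 counts against 32419 and 36374 in untreated cells (-1.51, adjusted p = 5.17e-08) and COL4A2 at 20407 and 22048 against 53871 and 51834 (-1.32, adjusted p = 4.21e-10). These were the largest falls among the called partner genes there. Of 11 tested basement membrane partners, 3 were lower and 2 higher (38.8% of all genes called). Both collagens were also lower on KCl day 2 (-0.77 and -0.61) and day 16 (-0.95 and -0.89), when LAMB1 and LAMA4 were not called. VCAM1, a ligand of the ITGA4 receptor, was at 86.7 and 72.3 on day 0 after SDS and at 48.2 and 49.1 on day 0 after KCl, beside 1144 and 702 in untreated cells (-3.51, SE 1.33, adjusted p = 0.0280, and -4.22, SE 1.28, adjusted p = 0.00585). On day 16 it was 3743 and 9436 after SDS (2.70, adjusted p = 0.00127), 7569 and 12582 after DXR (3.42, adjusted p = 7.39e-05), and in RS 5449 and 18880 (3.47, adjusted p = 5.11e-05). In each of these late groups ITGA4 was called lower than in untreated cells, but only the call on day 16 after DXR was firm. The ITGA4 call on day 16 after SDS was lost without SDS library 2, and that in RS without 3 of the 4 libraries. ITGA4 was also called lower on day 0 after SDS and KCl, when VCAM1 was lower, so its fall was not particular to the late groups. SDC1, a laminin-binding proteoglycan, fell to 865 and 1066 on day 16 after DXR (-1.56) and to 794 and 550 in RS (-2.08), from 2981 and 2671, while the ITGAV ligand VTN stood at 110 to 197 counts in the day 16 SDS and DXR libraries and in RS, beside at most 37.5 in untreated cells.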

How the data were processed

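RNA of WI-38 cells was sequenced in 52 libraries, 2 in each of 26 groups taken from the sample labels. The labels name Trim Galore, HISAT2, HTSeq, featureCounts and DESeq2, and the genome build GRCh38 (hg38), without versions or a strand setting. The 52 files come down to 25 different tables, each the authors' comparison of 1 group with untreated cells, and the files of the untreated cells hold the RS table. The deposited signal used here is the mean of normalized counts over the 4 libraries of a table, made by the authors with DESeq2. The other columns (log2 fold changes, standard errors, statistics, p-values) hold the authors' own comparisons and were not used. Other columns of per-sample values numbered 0.

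Because each mean is a sum of whole counts divided by size factors, the counts of each library were solved from the printed digits (10 tables with 15 digits, 15 with fewer, Python 3.11.15, NumPy 2.4.6, SymPy 1.14.0). Among tables with 15 digits, the counts of 59407 of 59408 genes were solved, and at 10 digits 0 of 292023 single solutions and 1 of 1736 solutions picked within the range of replicate ratios (0.0576%) were wrong against them. The design fixed earlier asked for genes solved in every table. The authors' own statistics were the alternative if too few of the tested genes were solved. Of the 29 genes tested, 15 were solved in every table, which was too few by that rule. The alternative was not used, so the method departs from the design. In all but 46 of 950 pairs of a gene and a group the counts were solved. These 46 entered as the exact group mean with the second library missing. Library 1 is the larger of a pair and does not follow the labels' replicate numbers.

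Libraries were scaled by median-of-ratios size factors over 12658 genes. Genes with a mean of at least 10 over the groups were fitted with voom weights in 1 limma 3.58.1 model of all 26 groups (R 4.3.3, counts plus 0.5), with p-values adjusted by the Benjamini-Hochberg method over 15605 genes. The steps were tested on artificial data. The members follow a rule on symbols, and values are printed for the 3 called genes with the largest change (mean of at least 100 in the higher group) on days 0, 2 and 16 and in RS, and for genes called in both directions. From the partner lists, the values printed come from the called genes with the largest rises and falls in those comparisons. The members and lists were chosen with earlier results of these data known. Alternatives were total-count scaling, limma-trend on log2 of the normalized count plus 1, minimum means of 1 and 100 and leaving out each library, and, added after seeing the data, each pair of groups fitted alone and genes solved in every table only. Exon lengths and overlaps came from the GENCODE annotation, and gene positions and promoters from RefSeq (26 of 38 genes matched). Intervals on counts are exact, at the 95% level. Of the genes tested and the markers, 1 each is counted in the totals but not reported here.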

Additional observations from a re-analysis of the deposited data

Results flagged for a closer look

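On day 0 the effects of 2 inducers on 1 gene differed in 23 cases, by the contrast between the inducers in the limma model, where the effects against untreated cells were called in opposite directions or where the difference was at least 1 on the log2 scale with a mean of at least 100 counts in the higher group. On day 16 no gene met this rule. How many of all genes met it was not counted, so the 23 cases are not read as particular to these genes. Over all genes on day 0, 56.6% were called for SDS against DXR, 63.7% for SDS against KCl and 64.8% for KCl against DXR. The values are differences in log2 level, adjusted over all genes.

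Between SDS and KCl, the difference was -5.08 (SE 0.50, adjusted p = 2.39e-10) for ITGB8, -5.59 (SE 0.80, adjusted p = 3.84e-07) for LAMB4 and -1.34 (SE 0.11, adjusted p = 2.53e-11) for LAMB1, which were all lower after SDS than after KCl. It was 1.83 (SE 0.18, adjusted p = 3.99e-10) for ITGA11 and 1.02 (SE 0.14, adjusted p = 1.26e-07) for LAMA1, higher after SDS. ITGA6 was higher after SDS by 1.52 (SE 0.22, adjusted p = 4.08e-07), because of its lower level after KCl, while ITGA8 was lower after SDS (-2.12, SE 0.31, adjusted p = 6.69e-07) with KCl at the untreated level.

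Between SDS and DXR, LAMA3 (-2.01, SE 0.19, adjusted p = 1.70e-10), ITGA7 (-1.30, SE 0.16, adjusted p = 6.77e-08), ITGA3 (-1.11, SE 0.16, adjusted p = 4.84e-07) and LAMA4 (-0.88, SE 0.11, adjusted p = 2.06e-08) were lower after SDS, each called in opposite directions against untreated cells. ITGB8 (-2.92, SE 0.51, adjusted p = 1.34e-05), ITGA6 (-1.29, SE 0.26, adjusted p = 8.82e-05) and LAMA5 (-1.20, SE 0.18, adjusted p = 1.75e-06) were also lower after SDS.

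Between KCl and DXR, ITGA6 had the largest difference (-2.81, SE 0.26, adjusted p = 1.01e-10), with 1704 and 2196 counts after KCl and a mean of 13438 after DXR. ITGA3 (-1.32, SE 0.15, adjusted p = 1.51e-08), ITGA11 (-1.21, SE 0.18, adjusted p = 9.86e-07), LAMA3 (-1.15, SE 0.13, adjusted p = 8.64e-09), LAMA1 (-1.11, SE 0.13, adjusted p = 1.39e-08) and LAMA4 (-0.90, SE 0.11, adjusted p = 8.75e-09) were lower after KCl. ITGB8 (2.16, SE 0.20, adjusted p = 6.83e-11), ITGA8 (1.14, SE 0.22, adjusted p = 5.84e-05) and LAMB1 (1.06, SE 0.13, adjusted p = 9.28e-08) were higher after KCl.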

How the results depend on the processing

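The untreated pair, with the fewest counts, enters all 25 comparisons with untreated cells. The total of 273 calls was 196 without untreated library 1 and 210 without library 2, and between 257 and 295 under the other settings. Of the 15 genes solved in every table, 127 calls became 120 when they were fitted without the rest. Among the 51 largest changes and flagged differences, no log2 fold change changed sign under any setting run for it. The signs of the other values printed were not checked in this way. Total-count scaling moved the median of all genes by at most 0.09. No paired analysis was possible because the rebuilt libraries carry no replicate numbers.

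With the 2 groups of a comparison fitted alone, the number of genes called was 7 in RS, 8 on SDS day 16, 6, 11, 3 and 11 on KCl days 2, 3, 6 and 16, 11 on DXR day 4, 0 for SDS against DXR on day 16 (limma, 3 at an unadjusted p under 0.05, 27 genes) and 5 for SDS against KCl on day 16. No share of all genes is given beside the counts of this section. Total-count scaling gave 8 on KCl day 1 and 1 on KCl day 16, limma-trend gave 4 on KCl day 2, and a minimum mean of 1 gave 1 on KCl day 16 and 3 on DXR day 2.

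Leaving out 1 library at a time, the counts ranged from 8 to 12 on SDS day 1, 4 to 8 on day 3, 5 to 7 on day 4, 5 to 9 on day 6 and 7 to 13 on day 8. After KCl they ranged from 2 to 9 on day 1, 0 to 1 on day 2, 3 to 5 on day 3, 6 to 9 on day 4, 3 to 7 on day 6 and 0 to 1 on day 16, and after DXR from 6 to 11 on day 1, 3 to 5 on day 2 and 7 to 8 on day 6. On day 16, SDS against DXR gave 0 to 4 (0 by limma without SDS library 2 and without either DXR library, with 6, 7 and 4 genes at an unadjusted p under 0.05), SDS against KCl 5 to 9, and KCl against DXR 9 to 13. For the 51 largest changes and flagged differences, 204 values were fitted with a library left out, of which 184 stayed past the threshold and 20 did not. Over all 273 calls against untreated cells, 142 were lost at least once.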
